A study of Mus musculus with 12 samples.

Results

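Mitochondrial ribosomal protein genes were taken as all rows of the expression table whose symbol begins with Mrpl or Mrps followed by a digit. The pattern found 78 of 18962 genes with values, 49 named for the large subunit (Mrpl) and 29 for the small subunit (Mrps). All 78 exceeded the filter on low values, which asked for 1 FPKM or more in 3 or more of the 12 libraries and left 13071 genes to test. FPKM is the number of sequenced fragments scaled to transcript length and library size.

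The mitochondrial ribosome, or mitoribosome, sits in the mitochondrial matrix and translates the few messages of the mitochondrial genome, all of which encode core subunits of the respiratory chain and ATP synthase. Its RNAs are made in the mitochondrion, whereas all of its proteins are encoded in the nucleus, made in the cytosol and imported. The small subunit decodes the message, and the large subunit forms the peptide bond and hands the growing chain to the inner membrane. Some of its proteins have relatives in bacterial ribosomes and others were added in the mitochondrial lineage.

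Messenger RNA was sequenced from whole brain, with cerebellum and olfactory bulb removed, of wild-type CBA/N mice, an inbred laboratory strain. Males and females were held for 4 weeks under a winter-like regime (10 °C, 8 h light and 16 h dark per day) or a summer-like regime (30 °C, 16 h light and 8 h dark). The 4 groups of 3 libraries were winter males, winter females, summer males and summer females, and all brains were collected near the same hour of the early afternoon. Group membership rests on codes in the sample descriptions that the labels leave unexplained: M and F were read as the sexes, SC as short days in the cold, and LW as long days in the warmth. Age is not given in the sources used here, nor whether each library came from a separate animal, so the p-values measure the spread between these libraries. Day length and temperature changed together and cannot be told apart. In a bulk tissue, fewer cells of a type and less RNA per cell cannot be told apart either.

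The FPKM of each library summed to between 358511 and 375041 over all genes, and the number of reads behind a value is unknown. Markers of neurons, astrocytes and oligodendrocytes were abundant in every library. Those of microglia and oligodendrocyte precursors were mostly lower, with Tmem119 at 5.53 to 7.2 FPKM and Cspg4 at 2.37 to 3.35. Microglial P2ry12, at 16.55 to 21.61 FPKM, was near the astrocyte marker Aldh1l1, at 17.33 to 19.98. The precursor marker Gpr17 was at 7.93 to 10.57 FPKM in winter libraries and at 10.83 to 15.5 in summer libraries, without overlap. Pdgfra and Cspg4, of the same list, overlapped between the seasons. Whether cell content differed between the seasons was not tested. The summed level of 6 cerebellar markers lay between 47.2 and 70.7 FPKM in 11 libraries and reached 131 in winter male 1. Much of the sum was Calb1, at 37.4 to 51.0 FPKM in all libraries. In winter male 1, Pcp2 was at 24.9 FPKM, Cbln3 at 18.2 and Gabra6 at 11.2. Winter female 1 was next highest for these genes, at 2.05, 2.64 and 1.9 FPKM. No mitoribosomal gene was called with winter male 1 or without it. The transcripts made by the mitochondrial genome itself were not analysed here.

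Promoter sequence is shown for 4 members, chosen to show the motifs counted below and a divergent pair. Mrps12 encodes a protein of the decoding site and shares a divergent promoter region with Sars2, the mitochondrial seryl-tRNA synthetase. Mrps27 encodes an RNA-binding small-subunit protein and is divergent from Ptcd2. Mrps26 encodes a mitochondria-specific small-subunit protein, and Mrpl12 encodes the protein of the flexible stalk that binds translation factors. The windows run from 250 bases before to 30 bases after the start of each RefSeq promoter entry, 5′ to 3′ on the coding strand, for GRCm38.p6. This start is the first base of the gene except for Mrps27. There it lies a little inside the gene, which begins at chr13:99344767. They lie at chr7:28741792-28742071 on the minus strand for Mrps12, and on the plus strand at chr13:99344536-99344815 for Mrps27, chr2:130563507-130563786 for Mrps26 and chr11:120484387-120484666 for Mrpl12. Capitals mark matches on either strand to the letters searched: GCGCA and GCGC with any 1 base between them (the NRF1 motif), CCGGAAGT (the ETS motif), AAGATGGCG (the YY1 motif) and CCAAT.
Mrps12: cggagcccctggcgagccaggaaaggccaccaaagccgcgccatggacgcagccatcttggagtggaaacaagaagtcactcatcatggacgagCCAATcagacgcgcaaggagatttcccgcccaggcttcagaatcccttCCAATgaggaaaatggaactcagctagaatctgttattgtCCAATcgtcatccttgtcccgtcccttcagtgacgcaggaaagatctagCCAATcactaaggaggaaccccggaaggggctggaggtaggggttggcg
Mrps27: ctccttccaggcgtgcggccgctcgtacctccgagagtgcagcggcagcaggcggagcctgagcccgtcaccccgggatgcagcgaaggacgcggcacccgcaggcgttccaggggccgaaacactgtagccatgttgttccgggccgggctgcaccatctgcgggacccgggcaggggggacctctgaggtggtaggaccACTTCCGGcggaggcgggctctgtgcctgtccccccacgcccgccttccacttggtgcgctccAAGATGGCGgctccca
Mrps26: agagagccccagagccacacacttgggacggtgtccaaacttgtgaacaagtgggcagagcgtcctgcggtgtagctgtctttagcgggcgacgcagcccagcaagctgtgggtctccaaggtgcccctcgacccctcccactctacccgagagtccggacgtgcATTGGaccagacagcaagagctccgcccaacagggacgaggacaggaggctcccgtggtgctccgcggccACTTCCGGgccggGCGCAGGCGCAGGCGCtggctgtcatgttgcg
Mrpl12: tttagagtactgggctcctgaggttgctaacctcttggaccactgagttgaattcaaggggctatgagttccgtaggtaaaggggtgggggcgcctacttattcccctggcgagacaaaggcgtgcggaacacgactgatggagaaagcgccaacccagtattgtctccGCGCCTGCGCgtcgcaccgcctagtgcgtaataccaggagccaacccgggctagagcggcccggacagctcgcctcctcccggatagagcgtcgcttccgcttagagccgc

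The Mrps12 window held 4 CCAAT boxes, at 156, 108, 68 and 19 bases before the start, and none of the other 3 motifs. In Mrps27 the ETS letters began 49 bases before the start of its promoter entry and the YY1 letters 14 bases after that start. In Mrps26 a CCAAT box on the opposite strand, an ETS match and a pair of overlapping NRF1 matches followed one another, the NRF1 matches spanning the start itself. Mrpl12 held a single NRF1 match, 81 bases upstream.

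NRF1, the GABP factor of the ETS family and YY1 are known regulators of nuclear genes for mitochondrial proteins, so the same letters were counted in all promoters. RefSeq promoters of 300 bases, 250 before and 50 after the start, were matched for 69 of the 78 members and for 10407 tested genes. The NRF1 letters were in 13 member promoters, 18.8% against 10.3% of all. The ETS letters were in 11, 15.9% against 7.98%, and the YY1 letters in 8, 11.6% against 3.14%. At least 1 of these 3 motifs was present in 30 of 69 member promoters, 43.5%, and in 19.9% of all promoters, so the 3 motifs were each more frequent among the members. CCAAT boxes were in 39.1% of member promoters and 38.5% of all, and TATAAA in 5.8% and 6.71%, shares that were close to each other. The NRF1 letters were in 10 of 43 large-subunit and 3 of 26 small-subunit promoters, and the YY1 letters in 4 of 43 and 4 of 26. Median GC content was 58.3% in member promoters and 61.3% over all. These shares are descriptions of fixed windows, given with no test, and a match is not a bound site.

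Divergent gene pairs were also frequent among the members. Counting a protein-coding neighbour on the opposite strand whose start lies at most 1000 bases upstream, in the GENCODE M21 annotation of GRCm38, 18 of 78 members (23.1%) had one, against 1233 of 12900 tested protein-coding genes (9.56%). The share was 12 of 49 for the large subunit and 6 of 29 for the small. The closest pair was Mrpl54 with Apba3, whose starts were 26 bases apart. Other pairs were Mrpl49 with Fau, a cytosolic ribosomal protein gene, at 59 bases, Mrpl30 with Mitd1 at 66, Mrpl32 with the proteasome gene Psma2 at 75, and Mrps27 with Ptcd2 at 81. Mrps12 and Sars2, which both serve mitochondrial translation, were 172 bases apart. Members lay on many chromosomes, with the largest number, 11 of 78, on chromosome 11.

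**Figure D1:**
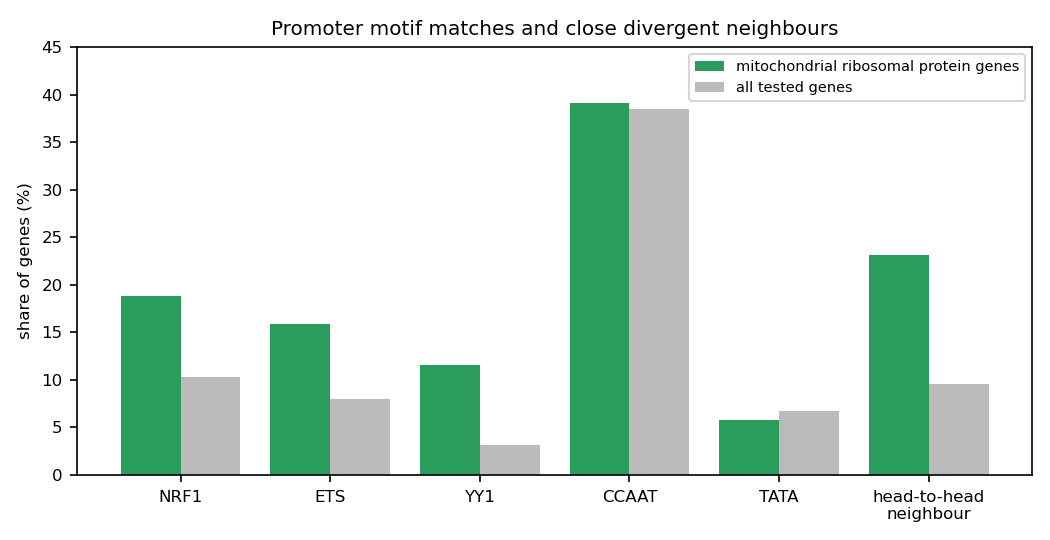
Share in percent of the 69 member promoters and of all 10407 promoters that hold each searched motif, and, at the right, of the 78 members and of 12900 protein-coding genes with a divergent (head-to-head) neighbour within 1000 bases. The NRF1, ETS, YY1 and neighbour bars are taller for the members (23.1% against 9.56% for neighbours), and the CCAAT bars are nearly equal at 39.1% and 38.5%.

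All members were expressed in every library, most of them at moderate levels. Mean FPKM over the 12 libraries ranged from 3.68 to 58.6, a 16.0-fold span, with a median of 19.5 and quartiles of 15.6 and 28.6. The median over all tested genes was 11.3 FPKM, and 70 of 78 members had a mean of at least 10 FPKM. The large and the small subunit had similar levels, with medians of 19.4 and 19.6 FPKM. Members on a set list of bacterial homologues (46) had a median of 20.1 FPKM, and the remaining members (32) one of 18.04. The remaining members are mostly mitochondria-specific, but they include Mrps18a and Mrps18b, which are paralogs of bacterial S18, and Mrps36. Member transcripts were short, with a median length of 1866.5 bases against 3510 for all tested genes.

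The most abundant large-subunit members were Mrpl20 at 58.6 ± 3.72 FPKM (SD, n = 12 libraries), Mrpl30 at 55.1 ± 3.64 and Mrpl42 at 53.9 ± 4.01. Among small-subunit members Mrps21 stood at 58.6 ± 5.12, Mrps33 at 47.3 ± 4.15 and Mrps18a at 47.03 ± 2.98. Mrpl20 and Mrps21 had the same level within their spread, at the head of each subunit. The least abundant were Mrpl17 at 3.68 ± 0.22 FPKM, Mrpl35 at 4.66, Mrps25 at 5.22 and Mrpl19 at 5.89. Levels within structural regions of the ribosome were unequal even where the proteins sit side by side.

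In the stalk region, where translation factors dock, Mrpl10 and Mrpl12 were at 39.5 ± 2.77 and 38.9 ± 2.52 FPKM, while Mrpl11, at the stalk base, was at 10.2 ± 0.728. The 5 proteins around the peptidyl transferase centre (Mrpl2, Mrpl3, Mrpl4, Mrpl16 and Mrpl27) ranged from 17.3 to 30.9 FPKM. The 5 at the nascent peptide exit, among them Mrpl45, the membrane anchor, ranged from 14.2 to 37.8. The 7 of the central protuberance ranged from 13.3 to 45.5, with Mrpl52 highest. The 3 paralogs of bacterial S18 were at 47.03 (Mrps18a), 38.7 (Mrps18c) and 17.5 FPKM (Mrps18b). Although all 3 carry a small-subunit name, Mrps18a is a large-subunit protein in mammalian structures, as is Mrps30, at 10.6 FPKM. Mrps36, at 32.6 FPKM, is also named Kgd4 and is known as a part of the oxoglutarate dehydrogenase complex. Mrpl58, at 27.2 FPKM, is a peptidyl-tRNA hydrolase that also sits in the large subunit.

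**Figure D2:**
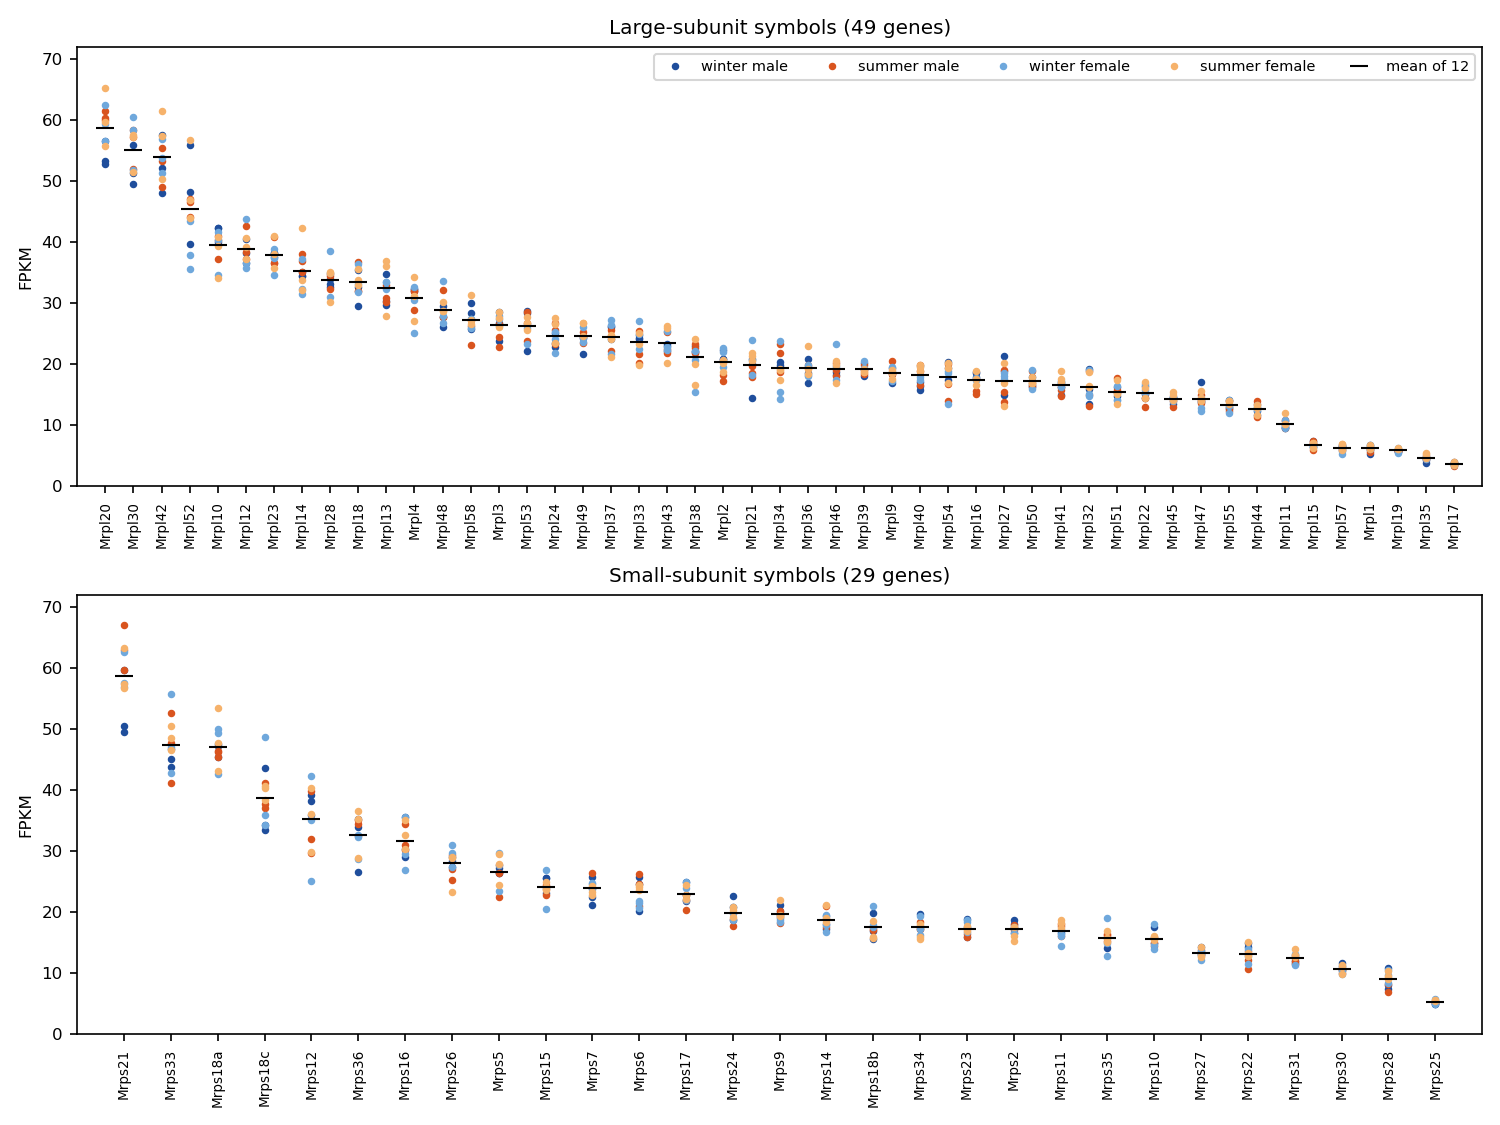
Level in FPKM (linear axis from 0) of each mitoribosomal gene, with large-subunit symbols in the upper and small-subunit symbols in the lower panel, ordered by mean. Each point is 1 library, coloured by group, and the line is the mean of 12. The subunits covered nearly the same range, with median means of 19.4 and 19.6 FPKM, and the colours are mixed for most genes.

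The members varied between libraries about as much as other genes. Their coefficient of variation over the 12 libraries ran from 3.71% for Mrpl39 to 14.8% for Mrps12, with a median of 7.496% against 8.01% over all tested genes. The median residual SD on the log2(FPKM + 1) scale was 0.102 for members and 0.0998 for all genes. Levels of Mrps12 in winter males were 39.2, 38.2 and 35.8 FPKM, followed by 25, 42.3 and 34.97 in winter females, 31.9, 39.9 and 29.7 in summer males, and 40.2, 35.98 and 29.7 in summer females. Its spread lay within the groups, and all 4 groups overlapped.

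The first question was whether housing in winter-like or summer-like conditions moved these genes, and whether it moved the subunits differently. Summed FPKM of the 49 large-subunit genes was 1125 ± 26.4 (SD, n = 3) in winter males, 1125 ± 14.9 in summer males, 1124 ± 41.6 in winter females and 1152 ± 60.4 in summer females. For the 29 small-subunit genes the sums were 674 ± 35.4, 676 ± 3.29, 677 ± 19.9 and 687 ± 22.5 in the same order. The summer females had the highest mean in both subunits. Summer female 1 stood at 1217 and 713, summer female 2 at 1143 and 675, and summer female 3 at 1097 and 674. The libraries of the 4 groups overlapped in both subunits, with sums from 1091 to 1217 in the large and from 653 to 715 in the small. Together the 78 genes took between 0.481% and 0.515% of all FPKM in every library.

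Per gene, winter was compared with summer over both sexes on the log2(FPKM + 1) scale, a scale that understates changes of low genes. Limma called 0 of 78 members at a Benjamini-Hochberg adjusted p of 0.05, against a background of 0.00765% of 13071 genes, and the smallest adjusted p of a member was 0.997. At an unadjusted p of 0.05 the count was 4 of 78, or 5.13%, against 4.88% of all genes. No member had all 6 winter libraries above or all 6 below the 6 summer libraries, where 0.115% and 0.168% of all genes did. The 95% intervals of the change, unadjusted and from limma, lay within a 1.5-fold change in either direction for 78 of 78 members. The farthest bound, 1.29-fold, was that of Mrpl27, a protein of the peptidyl transferase region.

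Mrpl2, which lies in the core around the peptidyl transferase centre, gave the smallest p of the season comparison. Its gene is at chr17:46646172-46650132 (GRCm38.p6). It was measured at 22.4, 20.9 and 20.8 FPKM in winter males against 20.6, 18.2 and 17.2 in summer males, and at 19.5, 22.6 and 21.9 in winter females against 20.7, 20.2 and 18.7 in summer females. Every winter male exceeded every summer male, whereas the female groups overlapped. The change was 0.14 ± 0.05 (SE) with an interval of 0.03 to 0.26 and an adjusted p of 0.997 by limma. The other members with the smallest p among those estimated higher in winter were Mrpl16 at 0.09 ± 0.05, also of the peptidyl transferase region, Mrpl33 at 0.12 ± 0.07, Mrpl27 at 0.15 ± 0.10 and Mrpl37 at 0.09 ± 0.06. Of the 5 proteins of that region, 4 had estimates above 0 and Mrpl4 did not, at -0.005; none was called. Without summer female 3 the estimate was 0.073 for Mrpl27, 0.076 for Mrpl33 and 0.055 for Mrpl37, and without summer female 1 it was 0.220 for Mrpl27.

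Among the members estimated lower in winter, Mrps11 and Mrps21 of the small subunit and Mrpl40 of the central protuberance had the smallest p. Mrps21 was measured at 50.5, 59.6 and 49.5 FPKM in winter males against 59.6, 67.0 and 63.0 in summer males, and at 56.8, 62.6 and 57.5 in winter females against 57.3, 56.8 and 63.2 in summer females. The winter males were lowest, with 1 of the 3 just above the lowest summer male, and the females overlapped throughout. Its change was -0.13 ± 0.05. Mrps11 stood at -0.12 ± 0.05, Mrpl40 at -0.12 ± 0.05, Mrpl35 at -0.11 ± 0.05 and Mrpl20, the most abundant member, at -0.09 ± 0.04. All of these had an adjusted p of 0.997.

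The sign of the estimates was unequal between the subunits, by very small amounts. Over the large subunit 35 of 49 estimates (71.4%) lay below 0, over the small subunit 15 of 29 (51.7%), and over all tested genes 52.1%. The median change was -0.02 in the large subunit, -0.0003 in the small subunit and -0.003 over all genes. The members were measured in the same libraries, so these counts carry no test, and they moved with single libraries. With each library left out in turn, 27 to 37 estimates of the large subunit and 13 to 16 of the small lay below 0. Of all 78 estimates 50 were below 0, and between 41 and 53 when each library was left out in turn. The count was 41 without summer male 1 and also without summer female 1, and the median over members, -0.018, became -0.003 without summer male 1 and -0.008 without summer female 1 or without winter male 1. Counting Mrps18a and Mrps30 with the large subunit and leaving out Mrps36 gave 36 of 51 and 13 of 26 below 0.

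**Figure D3:**
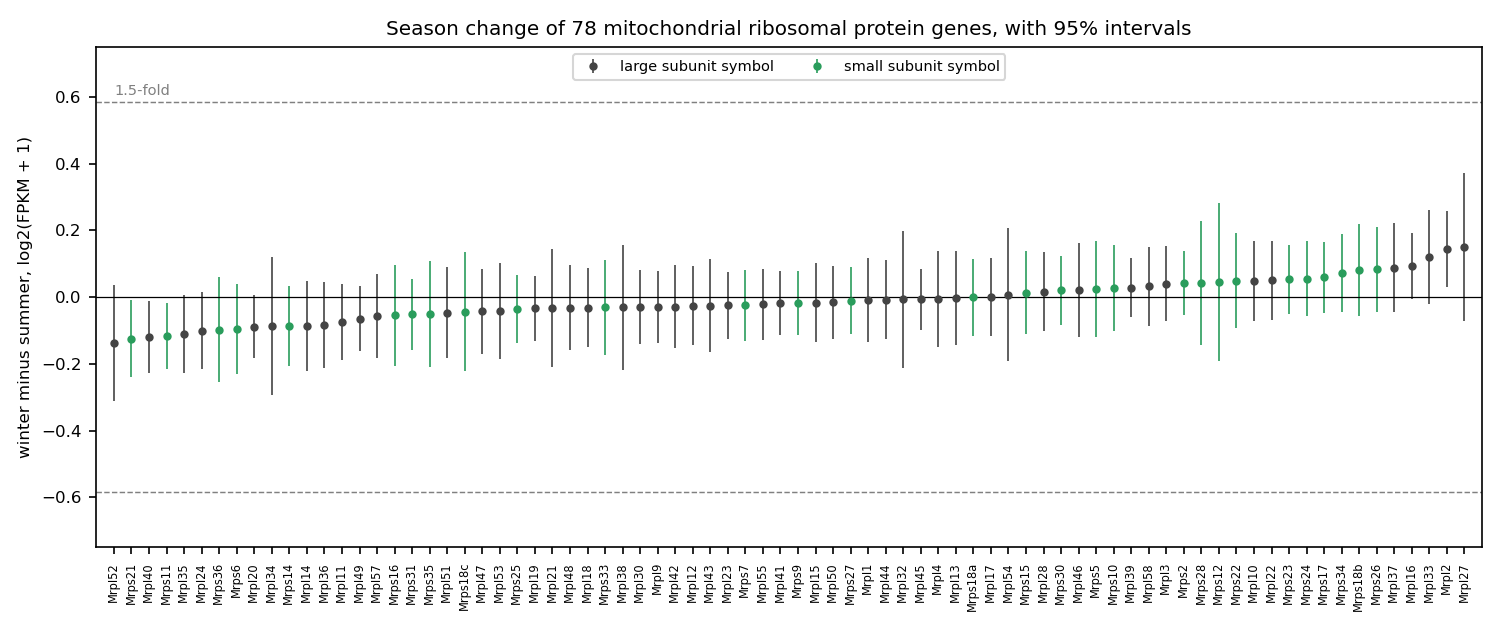
Winter minus summer change of each of the 78 mitoribosomal genes on the log2(FPKM + 1) scale, over both sexes, ordered by the change; points are estimates, bars 95% intervals and colours the subunit, and dashed lines mark 1.5-fold. No bar reaches a dashed line, and most cross 0.

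By structural region, the estimates scattered on both sides of 0. Of the stalk proteins, Mrpl10 was at 0.05 ± 0.06, Mrpl12 at -0.03 ± 0.06 and Mrpl11 at -0.07 ± 0.05. At the nascent peptide exit 4 of 5 lay below 0, and in the central protuberance 6 of 7 did. The decoding proteins Mrps7, Mrps9 and Mrps12 were at -0.02 ± 0.05, -0.02 ± 0.04 and 0.05 ± 0.11. Mutations in human combined oxidative phosphorylation deficiency are known for a chosen list of 11 members, among them MRPL3, MRPL44 and MRPS22. The list is not a full count of such genes. Of the mouse counterparts on it, 6 were estimated higher and 5 lower in winter, and none had an unadjusted p under 0.05 by limma.

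The season comparison was then made within each sex. In males limma called 0 of 78 members, against 0.00765% of all genes, and 5 members (6.41%) had an unadjusted p under 0.05, against 5.01%. Estimates were above 0 for 40 members (51.3%, against 48% of all genes) and below for 38. Mrps21 had the smallest p, with a change of -0.25 ± 0.08 and an adjusted p of 0.864. Mrpl16 was measured at 17.9, 18.6 and 18.8 FPKM in the winter males and at 17.5, 15.02 and 15.6 in the summer males, groups that did not overlap, for a change of 0.19 ± 0.07 (limma, adjusted p 0.969). Winter females were at 17.4, 17.6 and 17.7 FPKM and summer females at 18.8, 17.5 and 16.5, so the females overlapped. Mrpl2 and Mrpl16 (2.56%, against 6.12% of all genes) had every winter male above every summer male, and Mrpl20 alone (1.28%, against 6.53%) had every winter male below. Both shares lay under those of all genes, a difference that was not tested.

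In females limma again called 0 of 78 members, against 0% of all genes, and 2 members (2.56%) had an unadjusted p under 0.05, against 1.74%. They were Mrpl52 and Mrps11. Mrpl52, of the central protuberance, lies at chr14:54426909-54429750 and was measured at 37.9, 43.5 and 35.6 FPKM in winter females against 56.7, 46.9 and 43.9 in summer females. All winter females were below all summer females, and summer female 1 was the highest of these. The change was -0.32 ± 0.11 (limma, adjusted p 1). In males the same gene was at 56.0, 48.2 and 39.7 FPKM in winter and 47.02, 44.1 and 46.5 in summer, with overlap on both sides and a change of 0.05 ± 0.11. Mrps11 stood at 14.4, 16.0 and 16.4 FPKM in winter females and 18.7, 18.1 and 17.3 in summer females, without overlap, for a change of -0.20 ± 0.06 (limma, adjusted p 1). Mrpl46 and Mrps11 lie on opposite strands and overlap by 413 bases in the GENCODE annotation. Their RefSeq bounds do not overlap, with Mrpl46 ending at chr7:78783089 and Mrps11 beginning at chr7:78783131. Whether fragments were counted by strand is not given, so their separate values are uncertain.

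Lower groups without overlap in females were those of Mrpl52, Mrps11, Mrps6 and Mrps9 (5.13%, against 2.28% of all genes), and the higher one was Mrpl39 (1.28%, against 1.92%). Estimates lay below 0 for 56 of 78 members (71.8%), against 51.7% of all genes, and the median change was -0.032 in the large and -0.024 in the small subunit. Without winter female 3 the count below 0 was 43, and without summer female 1 it was 46 with a median over members of -0.010. Over all libraries left out in turn the count ran from 43 to 59, and the median over members from -0.049 to -0.010. The size of the lean of the female estimates to the lower side thus moved with single libraries.

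The female minus male difference in the season effect was tested directly. No member was called (background 0%), and 3 of 78 (3.85%) had an unadjusted p under 0.05, against 1.8% of all genes. They were Mrps21 at 0.25 ± 0.11, Mrpl52 at -0.37 ± 0.16 and Mrps22 at -0.30 ± 0.13, each with an adjusted p of 0.999. This comparison was the least precise: 75 of 78 intervals lay within 1.5-fold, and that of Mrpl54 reached 1.66-fold. The intervals were about as wide for the small as for the large subunit.

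Between the sexes, averaged over both seasons, limma called 0 of 78 members against 0.0612% of all genes. At an unadjusted p of 0.05 the count was 4 (5.13%), below the 11.6% of all genes. Mrpl41, a large-subunit protein also studied in apoptosis, had the smallest p. It was at 17.1, 17.1 and 16.3 FPKM in winter females and 18.9, 17.6 and 17.1 in summer females, against 16.3, 16.9 and 14.98 in winter males and 15.7, 16.2 and 14.8 in summer males. Females were mostly higher, and the lowest females overlapped with the highest males, for a change of 0.13 ± 0.04 (limma, adjusted p 0.384). Mrpl40 at 0.11 ± 0.05 and Mrpl21 at 0.18 ± 0.08 were estimated higher in females, and Mrpl38 at -0.19 ± 0.09 and Mrpl34 at -0.19 ± 0.10 lower. Estimates were above 0 for 51 members (65.4%, against 55.3% of all genes). No member's sexes were fully apart, where 0.398% of all genes were higher and 0.245% lower without overlap in females. All 78 intervals lay within 1.5-fold.

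**Figure D4:**
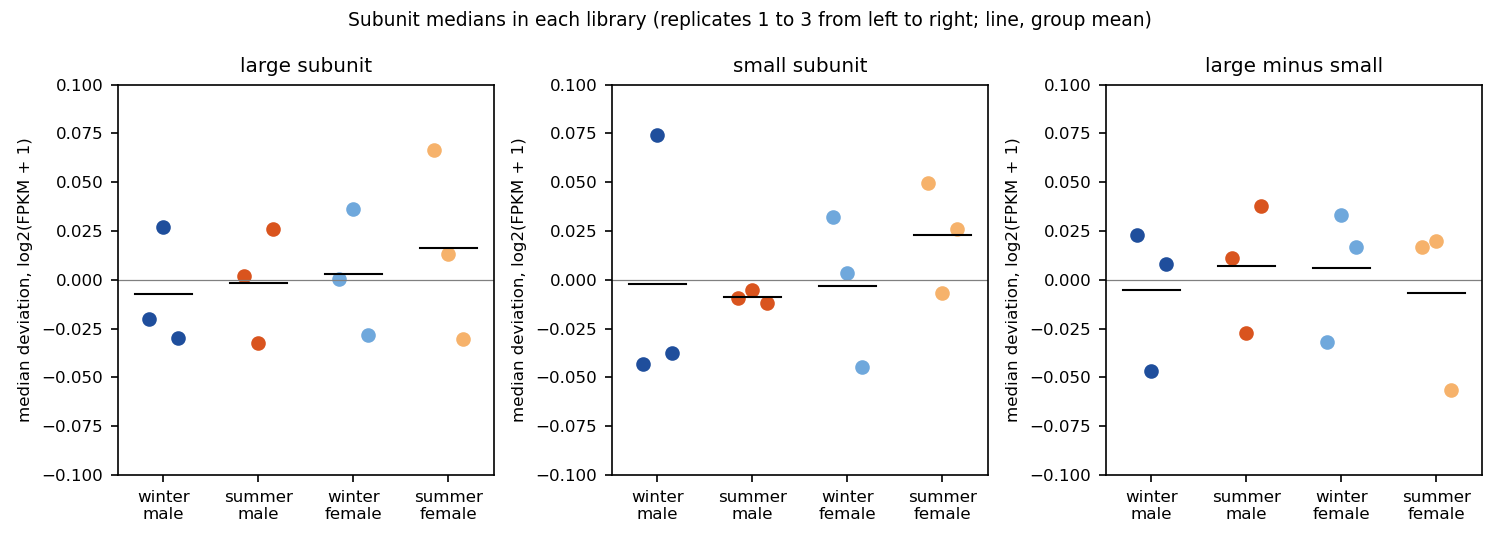
Median deviation of the subunit's genes from their means over 12 libraries, on the log2(FPKM + 1) scale, in the large subunit, the small subunit and as large minus small. Each point is 1 library and each line a group mean. In the large subunit the points of each group spread more widely than the lines differ; in the small subunit the summer males lie close together. Single libraries stand apart, with summer female 1 at 0.066 in the large and winter male 2 at 0.074 in the small subunit.

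Member medians differed between single libraries of the same group. In summer female 1, 64 of 78 members were above their own mean over the 12 libraries and in winter male 2, 58 were, whereas in winter female 3 only 24 were. The large-subunit median ranged from -0.032 in summer male 2 to 0.066 in summer female 1, and the small-subunit median from -0.045 in winter female 3 to 0.074 in winter male 2. The subunits differed from each other by at most 0.057, in summer female 3, where the small subunit was higher. The large subunit was relatively highest in summer male 3, by 0.038. Neither direction belonged to a season or a sex.

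Part of the variation between libraries ran along transcript GC content. Member GC content spanned 38.6% (Mrps9) to 60.4% (Mrpl54), with a median of 49.8%, the same as over all genes. Across the 78 members, deviation and GC content had a Spearman correlation of -0.50 in winter female 1 and -0.45 in summer female 3, and of 0.39 in winter female 2. Over all tested genes the values in these libraries were -0.60, -0.66 and 0.25. In winter male 3, summer female 1 and winter male 1 the members had 0.19, 0.20 and 0.16, where all genes had 0.55, 0.47 and 0.43. In winter female 1 the members of below-median GC stood at 0.071 and those above it at -0.080. The first principal component of the members' deviations within groups held 31.2% of their variance, and its loadings had a Spearman correlation of 0.59 with GC content across the 78 genes, which share the same 12 libraries. Mrps12 had the largest loading and Mrps18c, of low GC content, the most negative. The part of GC content in any single change was not tested, and correcting each library for it left 0 members called in every comparison. Correlations between pairs of members over the within-group deviations were weak, with a median of 0.13 over 3003 pairs, 0.14 between large-subunit members, 0.12 between small-subunit members and 0.12 across subunits.

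**Figure D5:**
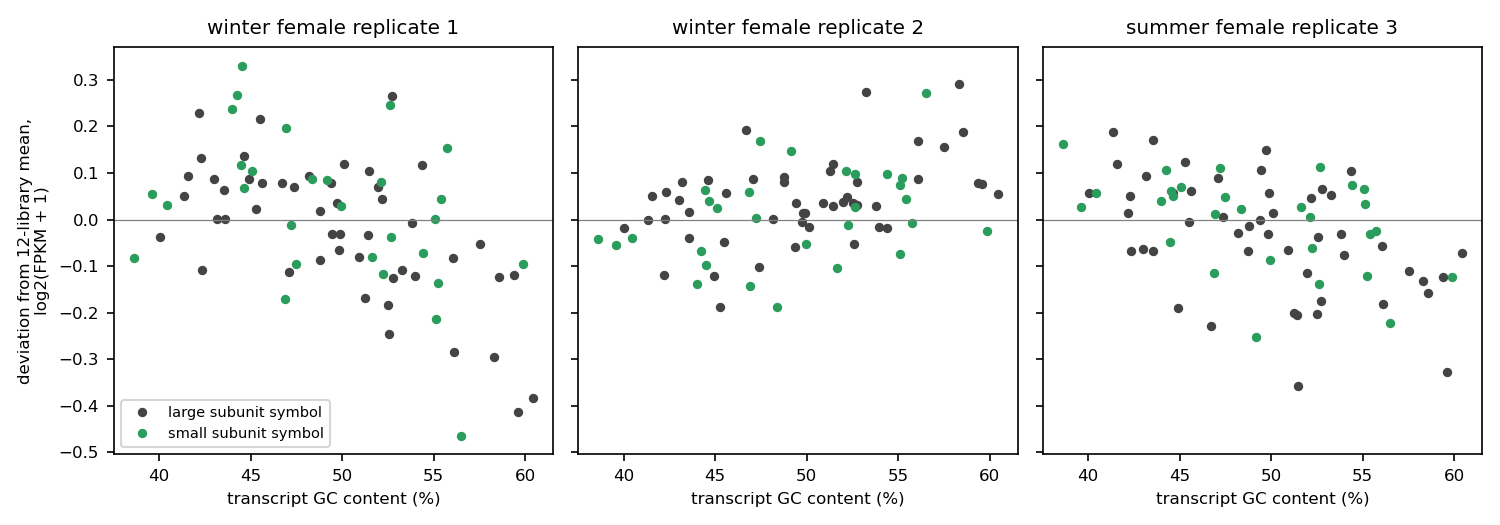
Deviation of each mitoribosomal gene from its mean over 12 libraries, on the log2(FPKM + 1) scale, against transcript GC content in percent, in winter female 1, winter female 2 and summer female 3; each point is a gene, coloured by subunit. In the outer panels the points decline with GC content (Spearman -0.50 and -0.45 over 78 genes), and in the middle panel they climb (0.39).

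Among genes that work with the mitoribosome, none passed the test either. The 5 mitoribosomal proteins with other names were expressed at levels like the members', with Dap3, a GTP-binding small-subunit protein, at 41.4 FPKM, Chchd1 at 31.9, Aurkaip1 at 26.9, Ptcd3 at 19.1 and Gadd45gip1 at 12.4. Their median season change was -0.005. Of 22 assembly factors 10 were estimated higher and 12 lower in winter, with Fastkd2, an RNA-binding protein of the mitochondrial RNA granule, at -0.14 ± 0.06 and the pseudouridine synthase Trub2 at 0.13 ± 0.05. Of 14 translation factors and RNA regulators, the elongation factor Tufm was at -0.12 ± 0.05 and Slirp, which stabilises mitochondrial messages, at 0.13 ± 0.06. A list of 20 held mitochondrial aminoacyl-tRNA synthetases and the amidotransferase genes Qrsl1, Gatb and Gatc. Of these, Yars2 was at -0.12 ± 0.05 and Sars2 at 0.12 ± 0.06. Sars2 and its divergent neighbour Mrps12, at 0.05 ± 0.11, had the same sign. Of 16 divergent pairs with both genes tested, 7 had the same sign of the season estimate and 9 the opposite, among them Klc4 at -0.06 ± 0.07 with Mrpl2 at 0.14 and Pnpla7 at 0.21 ± 0.05 (limma, adjusted p 0.485) with Mrpl41 at -0.02. Among 13 genes of mitochondrial transcription, mitochondrial DNA upkeep and their nuclear regulators, Gabpa, a subunit of GABP, was at -0.11 ± 0.07. None of the genes in these lists was called in any of the 5 comparisons.

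The products of mitochondrial translation enter the respiratory complexes together with nuclear subunits, and the cytosolic ribosome makes both sets of imported proteins. Of 83 tested nuclear respiratory chain genes 44 were estimated higher and 39 lower in winter, with a median of 0.007. Of 78 tested cytosolic ribosomal protein genes 66 were estimated lower, with a median of -0.04, where 52.1% of all tested genes were lower. Within the sexes 68 were lower in females, with a median of -0.053, and 43 in males, with a median of -0.009. The median deviation of these genes was highest in summer female 1, at 0.084. None of either list was called for season. The mitoribosomal median, -0.018, lay between those of these lists, and the differences between the lists were not tested.

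Some of the members lie in shared loci. In GENCODE, 26 of 78 members overlap another protein-coding gene, 23 on the opposite strand and 4 on the same strand. Mrps6 overlaps Slc5a3, a myo-inositol transporter gene on the same strand, by 29152 bases. Slc5a3 was at 4.82 FPKM with a season change of -0.16 ± 0.08, and Mrps6 was at -0.10 ± 0.06. These overlaps are those of whole genes, introns included, and overlap of exons was not counted. Fragments of any shared exon could be assigned to either gene, so both values are uncertain.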

How the data were processed

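Poly-A RNA of 12 libraries, 3 in each of 4 groups, was sequenced as strand-specific paired-end libraries, per the labels' protocols. The submitters' processing notes name HISAT, RSEM and GRCm38.p6; no version is given in these sources. The authors deposited FPKM values per gene with 2 decimals for 18962 genes; 1 further line held no values. RefSeq matched 18836 identifiers, and 25 symbols turned into dates by a spreadsheet were restored. Sequencing depth is unknown, so no counting intervals are given.

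Values were taken as log2(FPKM + 1). A linear model in limma, with a mean for each of the 4 groups, 8 residual degrees of freedom, trended empirical Bayes and two-sided tests, was fitted to 13071 genes with 1 FPKM or more in 3 or more libraries, and p-values were adjusted by Benjamini-Hochberg over all of them (R 4.3.3, limma 3.58.1). The model was also run on simulated data with noise drawn independently for each gene. Such data lack the variation shared between genes, and no result given here rests on that run. Transcript GC content and neighbours came from GENCODE M21. Tables and plots were made with matplotlib 3.10.9, numpy 2.4.6 and pandas 2.3.3 under Python 3.11.15.

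Named members were those with the 5 smallest p-values per direction for season and 3 for each other comparison, the 5 highest and lowest levels per subunit, the 5 largest residual spreads, and genes of set structural or disease roles. Not every named member is described. The members and lists were chosen with earlier results of these data known. Alternatives changed the filter, the pseudocount, the scaling (in 2 ways) and the variance model, added a replicate block or a GC correction, fitted each sex alone, or left out libraries.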

Additional observations from a re-analysis of the deposited data

How the results depend on the processing

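No mitoribosomal gene was called in any of the 5 comparisons under any of the 24 or 25 alternatives run for each. The smallest adjusted p of a member over these alternatives was 0.452 for season, 0.450 in males, 0.998 in females, 0.942 for the interaction and 0.114 for sex. Scaling to the upper quartile or by median-of-ratios moved the median season change of all genes by less than 0.1, to 0.002 and 0.0007.

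Leaving out each library in turn gave median season changes from -0.034 to -0.010 in the large subunit and from -0.016 to 0.013 in the small, and large minus small from -0.034 to -0.003. In males the ranges were -0.032 to 0.011, 0.002 to 0.039 and -0.042 to -0.015; GC correction turned large minus small in males from -0.027 to 0.006, with 0.011 in the large and 0.006 in the small subunit. In females they were -0.058 to -0.010, -0.073 to 0.010 and -0.029 to 0.049, the extremes -0.073 and 0.049 coming without winter female 1. For sex they were 0.010 to 0.044, -0.006 to 0.032 and -0.001 to 0.039. Taking means over members in place of medians gave levels of 23.1 FPKM for the large and 23.4 for the small subunit.

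Of 50 named members, 22 changed the sign of their season estimate under some alternative, all with estimates under 0.05 in size. Mrps18a became 0.0053 with upper-quartile and 0.0038 with median-of-ratios scaling. With GC correction, with or without the replicate block, Mrps9 became 0.011, Mrpl1 0.013, Mrpl32 0.013 and Mrpl54 -0.015. Without winter female 1 and summer female 3 together, Mrps9 became 0.016, Mrpl21 0.0017, Mrpl17 -0.034, Mrpl19 0.0028 and Mrpl45 0.0025. With 1 library left out the estimates ran, for Mrps7 from -0.063 to 0.0057, for Mrps9 from -0.036 to 0.011, for Mrpl41 from -0.036 to 0.0049, for Mrpl21 from -0.082 to 0.046, for Mrpl38 from -0.095 to 0.043, for Mrpl17 from -0.031 to 0.026, for Mrpl1 from -0.049 to 0.033, for Mrpl30 from -0.056 to 0.0027, for Mrpl42 from -0.068 to 0.0035, for Mrps28 from -0.030 to 0.093, for Mrps30 from -0.0089 to 0.039. They ran, for Mrps33 from -0.082 to 0.012, for Mrps18a from -0.038 to 0.038, for Mrps18c from -0.120 to 0.0042, for Mrps12 from -0.037 to 0.147, for Mrpl32 from -0.068 to 0.061, for Mrpl54 from -0.055 to 0.082, for Mrpl12 from -0.070 to 0.0024, for Mrpl44 from -0.049 to 0.019, for Mrpl45 from -0.025 to 0.011, for Mrpl58 from -0.00011 to 0.068. The cause of these sign changes was not tested.

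Same-numbered libraries deviated together only weakly: over 18 pairs the correlation of their deviations ran from -0.23 to 0.24, with 6 above 0.1. The median was 0.038 over these pairs and -0.013 over 36 other pairs. The numbers were not taken as pairs. The replicate block called 0 members in every comparison. Leaving out rows of pseudogenes was not run, since the pattern matched none. Unknown depth limits all statements to the spread between libraries, and the median half-width of the season intervals was 1.09-fold.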
